A study of Mus musculus with 9 samples.

Results

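Actn1, Atp1b1, Cmah, Dapl1, Ipcef1, Itm2a, Ms4a4b and St8sia6 are 8 of the 19937 genes that could be named on these mouse arrays. They were chosen by their log2 levels in these arrays, which were far lower in both groups of lung T helper 2 (Th2) cells than in naive T cells, so their differences from naive cells are given here as a description, with no test. Only the comparison between the 2 Th2 groups, which the choice did not use, was tested for them. Each gene was read by a single probe set that names no other gene, and all 8 were found.

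The arrays came from 3 groups of CD4+ T cells with 3 arrays each, and the titles call the arrays of a group biological replicates. Naive cells were CD4+ CD62L+ CD44- cells sorted from the spleens of sham-treated mice on day 29. Acute Th2 cells were CD4+ CD69+ ST2+ cells sorted from lungs on day 29, after intraperitoneal sensitisation with 10 µg ovalbumin in 1.5 mg alum on days 1, 14 and 21 and a 1% ovalbumin aerosol on 3 consecutive days. Chronic Th2 cells carried the same surface markers and were sorted from lungs on day 104, after the same sensitisation and 12 weeks of aerosol given on 2 consecutive days per week. The labels describe stimulation with antibodies to CD3 and CD28 for 8 h in every group before RNA was taken. The labels do not name the strain, sex or age of the mice or how many animals went into an array. Naive cells came only from spleen and Th2 cells only from lung, so organ and cell state cannot be told apart, and neither can day and stage of disease.

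A naive CD4+ T cell recirculates between blood and lymphoid organs in a resting state, held by transcription factors such as LEF1 and by receptors for homing and survival signals. After activation and differentiation it takes up effector programmes such as Th2, and much of the naive programme is shut down. The 8 genes belong to different parts of the cell. Ms4a4b and Itm2a encode membrane proteins of T cells, with several and with 1 membrane span. Atp1b1 encodes a beta subunit of the sodium pump, the ATPase that exports sodium and imports potassium. Cmah and St8sia6 act on sialic acids, the sugars that cap cell surface glycans: CMAH hydroxylates CMP-Neu5Ac to CMP-Neu5Gc, and ST8SIA6 is a Golgi enzyme that adds a sialic acid to another sialic acid. Actn1 encodes alpha-actinin 1, which crosslinks actin filaments and ties them to integrins. Ipcef1 encodes a partner of cytohesins, the exchange factors that activate ARF6. Dapl1 encodes a small protein related to death-associated protein 1. Only the products of Ms4a4b, Itm2a and Atp1b1 are themselves proteins of the plasma membrane, so the label of surface genes fits those 3, and Cmah and St8sia6 only through the glycans they shape.

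The promoters of these genes range from CpG-free to CpG-rich. RefSeq (GRCm38.p6) gave 11 windows of 250 bases before a transcript start for the 8 genes, with 2 for Cmah and 3 for Ipcef1. The 2 windows at the extremes of CpG content, Ms4a4b (chr19:11443308-11443557, plus strand) and St8sia6 (chr2:13793521-13793770, minus strand), are shown first with every CG in capitals. The Cmah window (chr13:24327154-24327403, plus strand) is shown for its match to the TCF/LEF core TCAAAG, which is in capitals. All are written 5′ to 3′ on the strand of the gene.
Ms4a4b: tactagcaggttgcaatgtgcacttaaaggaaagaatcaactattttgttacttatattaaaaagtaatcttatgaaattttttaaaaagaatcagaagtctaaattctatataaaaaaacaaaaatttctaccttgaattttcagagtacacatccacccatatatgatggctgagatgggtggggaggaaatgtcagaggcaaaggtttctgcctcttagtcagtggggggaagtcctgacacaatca
St8sia6: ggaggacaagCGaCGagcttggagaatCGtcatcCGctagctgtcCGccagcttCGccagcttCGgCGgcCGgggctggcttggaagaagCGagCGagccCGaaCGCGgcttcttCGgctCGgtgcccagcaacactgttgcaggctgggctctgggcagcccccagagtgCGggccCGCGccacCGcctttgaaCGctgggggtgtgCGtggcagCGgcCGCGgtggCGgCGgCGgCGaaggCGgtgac
Cmah: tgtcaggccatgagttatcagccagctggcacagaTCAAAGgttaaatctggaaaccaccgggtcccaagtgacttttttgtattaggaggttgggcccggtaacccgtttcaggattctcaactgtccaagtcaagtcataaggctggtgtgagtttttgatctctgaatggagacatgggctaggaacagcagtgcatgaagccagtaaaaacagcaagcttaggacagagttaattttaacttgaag
The Ms4a4b window held 0 CG pairs at 34.4% G+C, and the St8sia6 window held 30 at 70.8%. The median over 32851 windows of all genes was 6 CG pairs and 52.4% G+C. Atp1b1 with 24 CG pairs and Actn1 with 18 also lay above the upper quartile of 16, and the other members had 2 to 6 in each window. Searched on both strands, TCAAAG was present in a window of 2 of 8 members, Cmah and St8sia6, against 15.8% of 27025 genes. The FOXO core GTAAACA was found for 1, Dapl1, against 3.54% of genes. The ETS core GGAAGT was found for 2, Actn1 and Ms4a4b, against 22.2%, and the RUNX core TGTGGT for 0, against 15.9%. No motif was therefore shared by more than 2 of the 8, and a match in a window is a description of its letters.

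Expression is given as the deposited log2 intensity of each array, on which a difference of 1 is a doubling. It was read against olfactory receptor genes, whose known site of use is the nose: the 95th percentile of 1015 of them was 6.35 to 6.51 on naive arrays, 6.32 to 6.68 on acute arrays and 6.57 to 7.14 on chronic arrays. Values near that level are close to the arrays' background, so a difference that ends there may understate the change. In limma fits over all 19937 genes with Benjamini-Hochberg adjustment, 2.2% of genes were lower and 3.67% higher in acute Th2 than in naive cells at an adjusted p under 0.05. In chronic Th2 cells 4.2% were lower and 3.68% higher. Both comparisons use the same 3 naive arrays. The first naive array stood apart from the other 2: Il2, the cytokine that stimulated naive T cells make, was at 5.07 on it and at 11.33 and 11.27 on the others, and 19 of 21 genes induced through the T cell receptor were below both others. These levels go against the stimulation that the labels describe for this array, and whether its cells were stimulated was not tested. Without it, 6.11% of genes were lower and 6.05% higher in acute Th2 cells, and 11.4% lower and 5.84% higher in chronic Th2 cells. Where leaving this array out changed a count of called genes or the call of a named gene, both versions are given.

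Naive cells had high levels of all 8 genes and lung Th2 cells had levels close to background. For each of the 8, every naive array lay above every Th2 array, a pattern found for 7.36% of all genes and fixed here by the choice of members. The gap between the lowest naive and the highest Th2 array ran from 2.02 for Itm2a to 3.23 for Ms4a4b. Of the 48 member values on Th2 arrays, 45 lay under the olfactory receptor level of their array, and of the 24 values on naive arrays 0 did. In bulk samples, fewer cells with a transcript and less transcript per cell cannot be told apart.

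**Figure D1:**
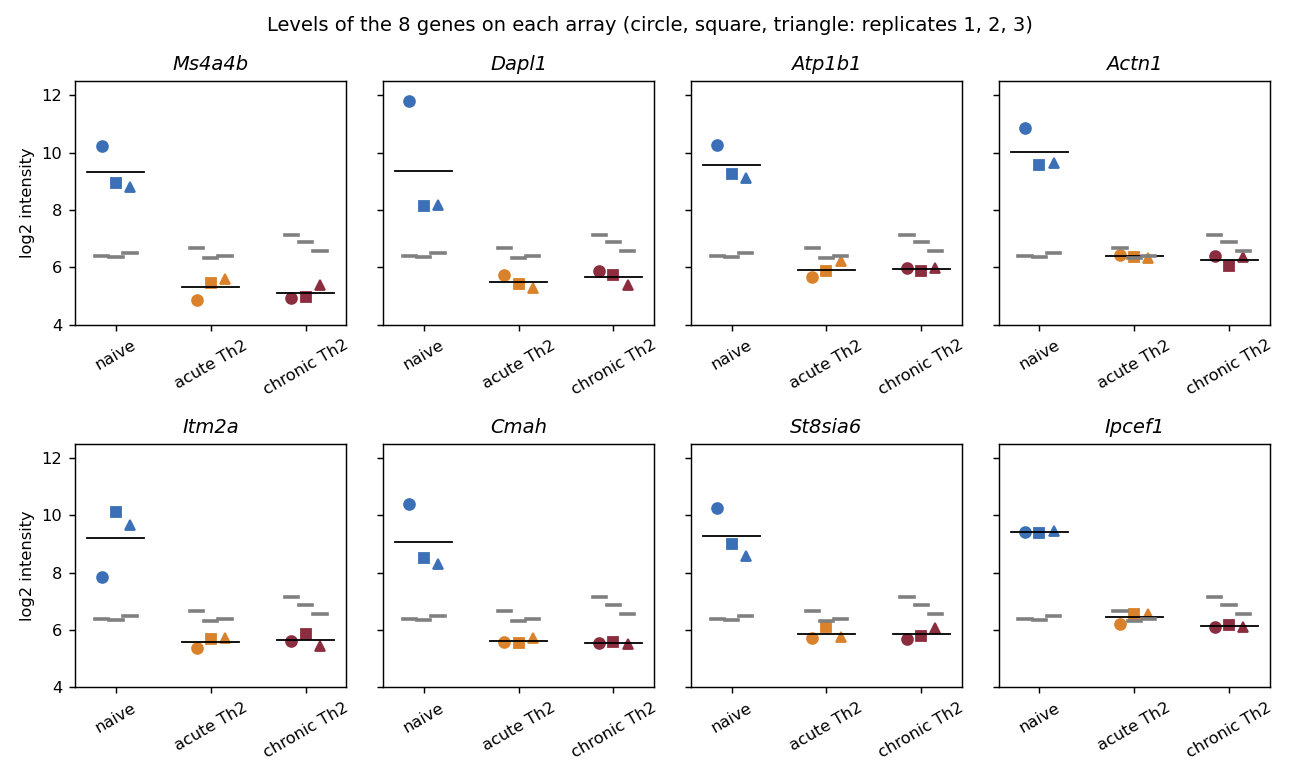
Log2 intensity (vertical axis) of the 8 genes on each of the 9 arrays, by group (naive, acute Th2, chronic Th2; 3 arrays each), with bars for the group means. Every gene sits far higher on the naive arrays than on the Th2 arrays, and the 2 Th2 groups lie at about the same level. The first naive array lies apart from the other 2 for all genes but Ipcef1.

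Among the membrane proteins, Ms4a4b had the largest difference. It read 10.23, 8.93 and 8.81 on the naive arrays, 4.87, 5.46 and 5.58 on the acute arrays and 4.93, 4.98 and 5.38 on the chronic arrays. The Th2 values all lay more than 3 log2 units under the lowest naive value, and the 2 Th2 groups overlapped. The group means were 9.32 ± 0.78 (SD, n = 3) in naive, 5.30 ± 0.38 in acute and 5.10 ± 0.24 in chronic cells, differences of -4.02 and -4.23 from naive cells. Itm2a, whose product is a single-pass membrane protein, read 7.87, 10.11 and 9.65 on the naive arrays. It read 5.37, 5.69 and 5.71 on the acute and 5.63, 5.85 and 5.45 on the chronic arrays. Here the first naive array was the low one, opposite to most of the 8. The means were 9.21 ± 1.18, 5.59 ± 0.19 and 5.65 ± 0.20, differences of -3.62 in acute and -3.56 in chronic cells.

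Atp1b1, the sodium pump subunit that brings the catalytic alpha chain to the plasma membrane, read 10.28, 9.26 and 9.13 in naive cells. It read 5.65, 5.86 and 6.21 in acute and 5.98, 5.88 and 5.97 in chronic cells. The 3 chronic arrays lay inside the range of the acute ones. The means were 9.56 ± 0.63, 5.91 ± 0.28 and 5.94 ± 0.05, and the differences from naive cells were -3.65 and -3.61.

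The sialic acid enzymes differed by similar amounts. Cmah read 10.41, 8.50 and 8.30 on the naive arrays, 5.59, 5.56 and 5.73 on the acute arrays and 5.54, 5.58 and 5.52 on the chronic arrays. All 6 Th2 arrays lay within 0.21 of each other, the smallest spread of the 8 genes, while the naive arrays had an SD of 1.17 around a mean of 9.07. The differences from naive cells were -3.44 and -3.53. St8sia6 read 10.26, 9.01 and 8.59 in naive cells, 5.73, 6.10 and 5.76 in acute cells and 5.70, 5.80 and 6.09 in chronic cells. Its acute and chronic arrays covered nearly the same range. Its means were 9.28 ± 0.87, 5.86 ± 0.21 and 5.86 ± 0.20, with a difference of -3.42 for both stages.

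Inside the cell, Actn1, the actin crosslinker, read 10.85, 9.59 and 9.63 on the naive arrays. It read 6.43, 6.38 and 6.34 on the acute and 6.39, 6.04 and 6.38 on the chronic arrays. The means were 10.02 ± 0.72, 6.39 ± 0.04 and 6.27 ± 0.20, differences of -3.64 and -3.76. Ipcef1, the cytohesin partner, was the 1 gene with a tight naive group, at 9.41, 9.39 and 9.46. It read 6.20, 6.58 and 6.58 on the acute arrays and 6.12, 6.17 and 6.12 on the chronic arrays. The acute arrays were all above the chronic ones by a small margin, and acute arrays 2 and 3 shared 1 value, as they did for 4.08% of genes. The differences from naive cells, -2.97 in acute and -3.28 in chronic cells, were the smallest of the 8 over all arrays. Dapl1 had the widest naive group, at 11.80, 8.14 and 8.19, with a mean of 9.38 and an SD of 2.10. It read 5.72, 5.43 and 5.28 in acute and 5.87, 5.74 and 5.40 in chronic cells. Even its lower naive arrays were more than 2 log2 units above every Th2 array, and the differences of the means were -3.90 and -3.71.

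Leaving out the first naive array moved these differences by gene. Dapl1 came to -2.69 in acute and -2.49 in chronic cells, and Cmah to -2.77 and -2.86. Ms4a4b came to -3.57 and -3.78, Actn1 to -3.22 and -3.34, Atp1b1 to -3.29 and -3.25, and St8sia6 to -2.94 in both. Itm2a went the other way, to -4.29 and -4.23, and Ipcef1 stayed at -2.97 and -3.29. Itm2a was thus the largest difference without that array and the fifth with it. Dapl1, Cmah and St8sia6 had smaller differences than Ipcef1 without it, as did Atp1b1 in chronic cells only.

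The first naive array was far from the other 2 in most of the 8 genes. Naive arrays 2 and 3 lay close together, with the largest difference, 0.46, for Itm2a. On the first naive array 6 of the 8 were more than 1 log2 unit above the mean of the other 2, from 1.08 for Atp1b1 to 3.64 for Dapl1. Itm2a was 2.01 below it and Ipcef1 differed by -0.02. Over all genes 3.79% were that far above and 4.37% that far below, with a median of -0.02. The choice of members used the naive arrays, so these shares are set side by side as a description. Of 18 other genes of the naive and homing programme, 13 were above both other arrays on the first and 3 were below both. Of the 21 receptor-induced genes, the 2 not below both other arrays on the first, Fos and Junb, were above both. The median level of the receptor-induced genes was 8.36 on the first naive array against 10.71 and 11.01, and that of the naive genes was 10.26 against 8.82 and 8.84. The part of the response to stimulation in the members' naive levels was not tested.

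**Figure D2:**
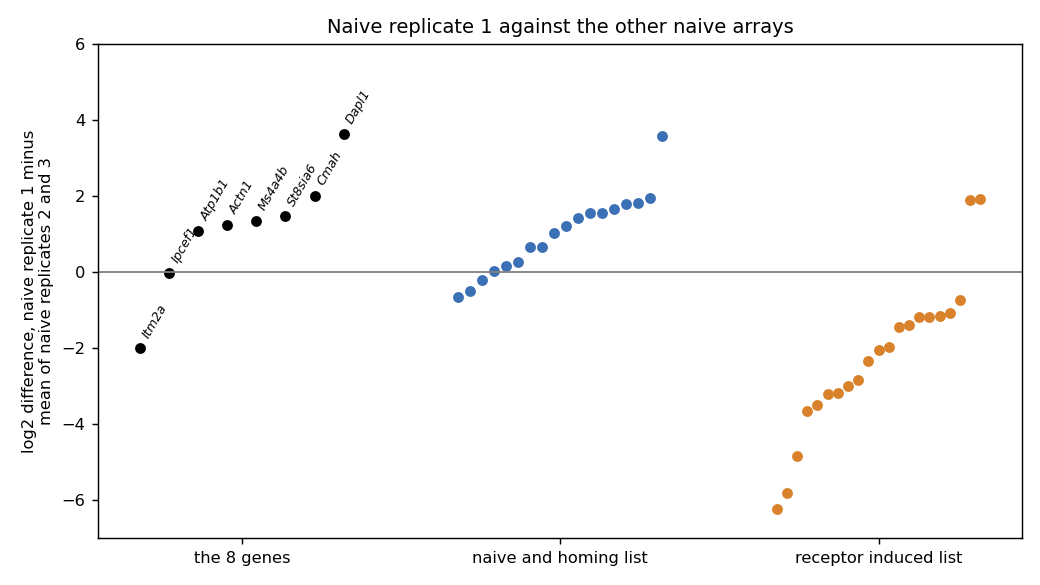
Difference of the first naive array from the mean of the other 2 naive arrays (log2 scale) for the 8 genes, for 18 other genes of the naive and homing programme and for 21 genes induced through the T cell receptor, 1 point per gene. Most members and naive genes lie above 0, with Itm2a at -2.01, and most receptor-induced genes lie below 0.

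Ordered by the difference in acute Th2 cells, the 8 genes were the 8 furthest below naive cells among called genes with no overlap of arrays, without predicted genes and receptor segments. Ipcef1, at -2.97, was the last inside. Just outside were Tmem71, at -2.94, and Lef1, the transcription factor of naive T cells, at -2.88. In chronic Th2 cells Lef1, at -3.50, came between Cmah and St8sia6, and Tmem71, at -3.19, and Qser1, at -3.13, followed Ipcef1. The last genes inside the set thus differed little from the first outside it.

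No member passed the test between the stages. By limma over all 9 arrays, 0 of 8 passed an adjusted p of 0.05 in chronic against acute Th2 cells, beside 0.0301% of all genes, 6 of 19937. At an unadjusted p under 0.05 it was 1 of 8, beside 14.9% of genes. Ipcef1 was that gene, lower in chronic than in acute cells, with a difference of -0.31 (SE 0.11, 95% interval -0.56 to -0.07), with a limma adjusted p of 0.322. It was also the 1 member whose acute and chronic arrays did not overlap, a pattern found for 22.7% of all genes. For Ms4a4b the difference was -0.21 with an interval of -1.03 to 0.62, and for Actn1 it was -0.12 with -0.81 to 0.57. Atp1b1 had an interval of -0.60 to 0.67 around 0.03, and St8sia6 one of -0.84 to 0.84 around 0.00. The intervals for Cmah, -1.14 to 0.98, and Itm2a, -1.05 to 1.16, and above all for Dapl1, -1.72 to 2.11, are wide. In this fit a stage difference of a doubling or a halving was thus outside the interval for Atp1b1, Actn1, St8sia6 and Ipcef1 and inside it for the other 4. These intervals take their spread from all 3 groups, naive arrays included, and not from the Th2 arrays alone. Dapl1 had an SD of 2.10 in naive, 0.22 in acute and 0.24 in chronic cells, and Cmah had 1.17, 0.09 and 0.03. Leaving out the first naive array kept both stage differences, with a limma adjusted p of 0.416 for Dapl1 and 0.558 for Cmah. Intervals are given here only for the fit on all 9 arrays. The Th2 values lie near background, where lower levels cannot be told apart.

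**Figure D3:**
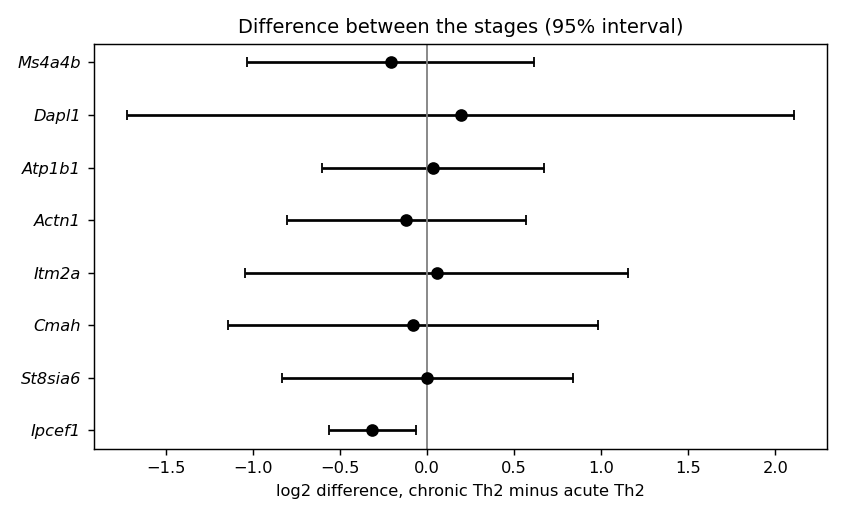
Chronic minus acute Th2 difference (log2 scale) of each of the 8 genes with its 95% interval from the limma fit. All intervals but that of Ipcef1, -0.56 to -0.07, include 0, and the interval of Dapl1 is the widest.

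The relatives and partners of the 8 genes, none of them a member, were then tested against naive cells. Their lists were chosen with earlier results of these data known, so the shares below are a description. Of 92 measured genes in 8 lists, 9 fell and 6 rose in acute Th2 cells, and 13 fell and 3 rose in chronic Th2 cells. As shares, 9.78% fell in acute and 14.1% in chronic cells, beside 2.2% and 4.2% of all genes. Between the stages 0 of the 92 were called by limma, with 13 at an unadjusted p under 0.05. Without the first naive array the counts were 11 fallen and 13 risen in acute and 15 and 13 in chronic cells. The shares fallen were then 12.0% in acute and 16.3% in chronic cells, beside 6.11% and 11.4% of all genes, and 14.1% rose in each, beside 6.05% and 5.84%. Leaving out another array gave 7 to 9 fallen and 2 to 4 risen in acute cells. In chronic cells 8 fell without the first chronic array, 7 without the second and 9 without the second naive array, and 12 or 13 without any other. The number risen in chronic cells was 1 without naive array 2 or 3 or chronic array 1 or 2, 5 without chronic array 3 and 2 without any acute array. Some relatives were under the olfactory receptor level on all arrays, where a fall may not show. They were 10 of 17 MS4A genes, 5 of 19 sialyltransferases, 4 of 12 sialic acid genes and 3 of 10 pump subunits. The other lists had 3 of 17 for actinins and linkers, 2 of 11 for cytohesins and partners, 1 of 4 for Dapl1 relatives and 0 of 2 for Itm2a relatives.

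The MS4A family, tetraspan proteins that include the B cell antigen CD20, held the largest falls among these relatives. Of 17 other family genes 3 fell in both stages: Ms4a6c, Ms4a6b and Ms4a4c. Ms4a6c read 9.58, 9.41 and 8.98 in naive, 6.15, 7.0 and 6.65 in acute and 6.38, 6.53 and 7.07 in chronic cells. It fell by 2.72 (SE 0.26, limma adjusted p = 0.000398) in acute and was at -2.66 (SE 0.26, adjusted p = 0.000469) in chronic cells. Ms4a6b read 10.93, 10.16 and 9.58 in naive, 7.15, 7.80 and 7.85 in acute and 7.26, 7.80 and 8.05 in chronic cells, and fell (-2.63 and -2.52, limma adjusted p = 0.00286 and 0.00347). Ms4a4c read 7.71, 6.79 and 6.92 in naive, 4.61, 4.71 and 4.66 in acute and 5.08, 4.98 and 5.11 in chronic cells, and fell (-2.48 and -2.08, limma adjusted p = 0.000192 and 0.000518). No naive array of these genes overlapped a Th2 array, and all 3 kept the call whichever array was left out.

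These genes are neighbours of Ms4a4b. In the RefSeq order (GRCm38.p6) of 22 protein-coding genes from Ms4a10 to Ms4a3, Ms4a4c, Ms4a4b, Ms4a6c and Ms4a6b lie in that order with only Gm8369, which was not analysed here, among them. The next measured genes on each side were not called in acute cells: Ms4a4a was at -0.22 (limma adjusted p = 0.575) and Ms4a4d at -0.43 (adjusted p = 0.109). Both were already under the olfactory receptor level on the naive arrays, where a fall may not show. The median over the 17 was -0.07 in acute and 0.10 in chronic cells, close to the -0.03 and 0.04 of all genes. Since 10 of the 17 were under that level on all arrays, this median says little about a fall. Ms4a1, which encodes CD20, was at 0.11 (adjusted p = 0.817) in acute cells. A faint rise of Ms4a13 in chronic cells, by 0.41 (limma adjusted p = 0.0366), was lost without any of 7 single arrays (adjusted p up to 0.131). Ms4a13 read 4.01 to 4.16 in naive and 4.32 to 4.62 in chronic cells, far under the olfactory receptor level, so both groups were at background. MS4A genes are alike in sequence, and how far probe sets of the family also read each other's transcripts was not tested.

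**Figure D4:**
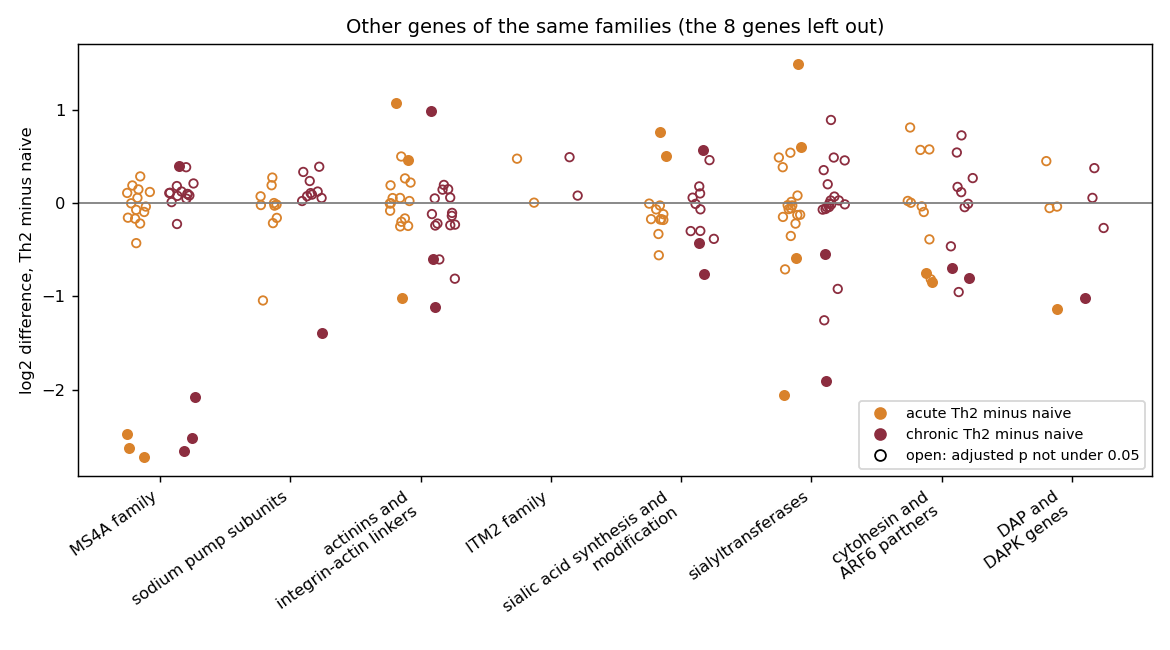
Difference from naive cells (log2 scale) of each relative in the 8 family lists, in acute and in chronic Th2 cells. The 8 members are left out. Called relatives are filled points and the others are open points. Ms4a6c, Ms4a6b, Ms4a4c and St8sia1 are the relatives that reach furthest below 0, and most other relatives lie near 0, some of them at background in every group.

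In the sodium pump list another beta subunit, Atp1b3, was lower in Th2 cells too, by less than Atp1b1. Atp1b3 read 11.72, 11.54 and 10.56 in naive, 10.09, 10.45 and 10.15 in acute and 9.73, 10.02 and 9.89 in chronic cells. It was at -1.04 in acute cells (limma adjusted p = 0.0653) and fell by 1.39 in chronic cells (SE 0.27, adjusted p = 0.0175). That call was lost without the second naive, the first chronic or the second chronic array (adjusted p = 0.0587, 0.0819 and 0.0525). Of the 10 relatives measured it was the 1 called in chronic cells, and 0 were called in acute cells. Fxyd5, a small regulator of the pump, rose in both stages without the first naive array, by 0.59 and by 0.66 (limma adjusted p = 0.0305 and 0.016). Over all arrays Fxyd5 was at 0.28 and 0.34 (limma adjusted p = 0.717 and 0.411).

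Among 17 other actinins and linkers of integrins to actin, 1 fell and 2 rose in acute cells and 2 fell and 1 rose in chronic cells. Without the first naive array 1 fell and 4 rose in acute and 2 fell and 3 rose in chronic cells. Fermt3, the kindlin of blood cells, then rose by 0.79 and by 0.48 (limma adjusted p = 0.00654 and 0.0457). Pdlim2 then rose by 0.43 and by 0.36 (limma adjusted p = 0.00922 and 0.0175). Over all arrays Fermt3 was at 0.50 and 0.20 (limma adjusted p = 0.338 and 0.602) and Pdlim2 at 0.22 and 0.15 (limma adjusted p = 0.592 and 0.549). Pdlim5, a LIM protein that binds actinin, fell (-1.01 and -1.11, limma adjusted p = 0.0134 and 0.00846). It was between 8.70 and 9.25 on the naive arrays and between 7.63 and 8.18 on the Th2 arrays. Vcl, which encodes vinculin, the protein that binds talin and actin at adhesions, went the other way. It read 6.39, 6.0 and 5.93 in naive, 6.99, 7.21 and 7.35 in acute and 6.99, 6.99 and 7.32 in chronic cells, a rise of 1.08 and of 0.99 (limma adjusted p = 0.00449 and 0.00659). Vasp, an actin filament elongation factor, fell in chronic cells by 0.59 (adjusted p = 0.0042) and was at -0.25 in acute cells (adjusted p = 0.175). Parvg, a parvin of blood cells, rose in acute cells by 0.47 (adjusted p = 0.0436), a call lost without any of 7 single arrays. Actn4, the other actinin that is widely expressed, was at 0.06 in acute and -0.23 in chronic cells (limma adjusted p = 0.89 and 0.21).

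The sialic acid lists moved in both directions. Of 12 other genes of sialic acid synthesis and removal, 0 fell and 2 rose in acute cells and 2 fell and 1 rose in chronic cells. Without the first naive array 2 fell and 2 rose in chronic cells. Cmas, which makes the CMP-Neu5Ac that CMAH uses, rose by 0.77 in acute cells (SE 0.13, limma adjusted p = 0.00805) and was at 0.46 in chronic cells (adjusted p = 0.0611; 0.0393 without the first naive array). It read 8.23, 8.32 and 7.92 in naive and 8.74, 9.0 and 9.04 in acute cells, with no overlap. Nans, the Neu5Ac 9-phosphate synthase, was at -0.18 in acute cells (adjusted p = 0.664) and fell by 0.76 in chronic cells (adjusted p = 0.0152), a call lost without the second naive or second chronic array (0.0538 and 0.0577). The sialidase Neu3 rose by 0.51 and by 0.57 (limma adjusted p = 0.048 and 0.0269) and the sialidase Neu1 fell in chronic cells by 0.42 (adjusted p = 0.0382). Each of these sialidase calls was lost when single arrays were left out, up to adjusted p = 0.189 for Neu3 and 0.141 for Neu1.

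Of 19 other sialyltransferases 2 fell and 2 rose in acute cells and 2 fell and 0 rose in chronic cells. Leaving out the first naive array made this 3 and 3 in acute and 3 and 2 in chronic cells. St8sia1, which makes the ganglioside GD3 by the same kind of linkage as ST8SIA6, had the largest fall. It read 9.39, 8.21 and 7.66 in naive, 6.33, 6.45 and 6.29 in acute and 6.30, 6.64 and 6.59 in chronic cells. It fell in both stages, to differences of -2.06 (SE 0.36, limma adjusted p = 0.0117) and -1.91 (SE 0.36, adjusted p = 0.016). The acute call was lost without acute array 1 or 3 (0.0517 and 0.0563) and the chronic call without the first or second chronic array (0.0776 and 0.0527), with differences of -1.80 or larger in size in these fits. St3gal6, which caps galactose with sialic acid, rose by 1.50 in acute cells (adjusted p = 0.0117; 0.053 and 0.0558 without acute array 1 or 3) and was at 0.90 in chronic cells (adjusted p = 0.0794; 1.15 with adjusted p = 0.00878 without the first naive array). St3gal4 fell (-0.59 and -0.55, limma adjusted p = 0.0213 and 0.0267), and St3gal5 rose in acute cells by 0.61 (adjusted p = 0.037). Single arrays ended these calls too, with adjusted p up to 0.0735 and 0.1 for St3gal4 and up to 0.139 for St3gal5. St8sia4, which makes polysialic acid, was at 0.49 and 0.36 (limma adjusted p = 0.658 and 0.579). St8sia4 rose by 0.99 and by 0.85 without the first naive array (limma adjusted p = 0.0204 and 0.0307). St6galnac4 then fell too (-1.35 and -1.90, limma adjusted p = 4.8e-05 and 5.7e-06), from -0.71 and -1.26 over all arrays (adjusted p = 0.537 and 0.128).

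Of 11 other cytohesins and ARF6 partners 2 fell in both stages and 0 rose, and without the first naive array 3 fell and 2 rose in both. Cyth3, a cytohesin, fell (-0.84 and -0.70, limma adjusted p = 0.00678 and 0.0156), the latter lost without the first or second chronic array (0.0514 and 0.0682). Cnksr3, a scaffold protein of the CNK family, was at 6.61, 6.83 and 6.83 in naive and between 5.91 and 6.15 on all Th2 arrays. It fell (-0.74 and -0.80, limma adjusted p = 0.00212 and 0.00136). Cyth1 was at -0.09 and -0.04 (adjusted p = 0.947 and 0.944). Cytip, which binds cytohesin 1, was at 11.53, 9.81 and 9.44 on the naive arrays and at 10.46 to 10.84 on the Th2 arrays, inside the naive range. Its differences were 0.57 and 0.27 (adjusted p = 0.646 and 0.715), and without the first naive array it rose by 1.21 and by 0.91 (limma adjusted p = 0.000236 and 0.0011). Without that array Cyth4, a cytohesin of blood cells, rose too, by 1.16 and by 1.08 (limma adjusted p = 0.00177 and 0.00228), and Grasp, a scaffold that binds cytohesins, fell (-1.20 and -1.33, adjusted p = 0.0015 and 0.00073). Over all arrays Cyth4 was at 0.81 and 0.73 (adjusted p = 0.162 and 0.145) and Grasp at -0.82 and -0.95 (adjusted p = 0.197 and 0.091).

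Of 4 relatives of Dapl1 and the death-associated protein kinases, 1 fell in both stages. Dapk1, the first kinase of that family, read 7.13, 7.23 and 7.20 in naive, 6.02, 5.99 and 6.14 in acute and 6.14, 6.27 and 6.10 in chronic cells. It fell (-1.14 and -1.01, SE 0.08, limma adjusted p = 7.32e-05 and 0.000152). Dap, the gene most like Dapl1, was at 0.45 and 0.38 (adjusted p = 0.627 and 0.491), and without the first naive array it rose by 0.91 and by 0.84 (limma adjusted p = 0.00385 and 0.00502). The 2 relatives of Itm2a were not called: Itm2b was at 0.01 and 0.08 (adjusted p = 0.993 and 0.743) and Itm2c at 0.48 and 0.50 (adjusted p = 0.313 and 0.187; Itm2c rose by 0.69 in chronic cells without the first naive array, limma adjusted p = 0.0371). Of the paralogs set beside the members, Ms4a4c and Ms4a6b beside Ms4a4b and St8sia1 beside St8sia6 fell in both stages, while Actn4, Itm2b, Itm2c, St8sia4, Cyth1, Cytip and Dap were called in neither on all 9 arrays.

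Other genes of the naive programme were lower in lung Th2 cells too. Of 18 other genes of naive cells and homing, 9 fell in acute and 10 in chronic cells and 0 rose, with medians of -1.55 and -1.58. Of the acute calls, Klf3 was kept in 2, and Foxp1 and Treml2 each in 3, of the 9 fits that left out 1 array. The other acute calls were kept in all 9. In chronic cells 5 fell without the first chronic array and 6 without the second. Without the first naive array 12 fell in each stage, and 1 rose in acute and 2 in chronic cells. The medians were then -0.94 and -1.21. Lef1 fell (-2.88 and -3.50, limma adjusted p = 0.000922 and 0.000283), and Bach2, a repressor of effector genes, fell (-2.17 and -2.13, adjusted p = 0.000163 and 0.000183). Txk, a T cell kinase, fell (-2.46 and -2.85, adjusted p = 0.0103 and 0.00495). Klf3 fell too (-1.66 and -2.26, limma adjusted p = 0.0477 and 0.0113), and its chronic call was kept in 7 of the 9 fits. Of 21 receptor-induced genes 1 fell in each stage and 0 rose: Dusp2, a phosphatase of MAP kinases, was at -1.70 and -1.65 (limma adjusted p = 0.00805 and 0.00895). Without the first naive array 10 of these 21 fell and 3 rose in acute and 12 and 3 in chronic cells.

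Over the 9 arrays the members followed their common mean with Pearson r from 0.882 for Itm2a and 0.939 for Dapl1 to 0.998 for Atp1b1. The arrays fall into a high naive and a low Th2 cluster, so these values mostly repeat that split and carry no test. The genes outside the set with the highest r were Ephx1, an epoxide hydrolase, at 0.995, Tmem71 at 0.994, Cep68 at 0.992 and Pank4 at 0.990. They were followed by 1700025G04Rik and the polycomb gene Cbx7 at 0.988 and by Smyd3 and Gm12185 at 0.987. They shared the shape and not the size: Ephx1 was at -2.18 in acute and -2.27 in chronic cells, and Pank4 at -0.64 in both.

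The sort was checked on the same arrays. Cd44, by which naive cells were gated low, rose by 1.93 in acute and by 1.89 in chronic cells (limma adjusted p = 0.000289 and 0.000334), and Cd4 was at 0.35 and -0.19 (adjusted p = 0.689 and 0.698). Cd69, an early activation antigen that receptor stimulation induces, was at -0.51 and -1.09 (adjusted p = 0.683 and 0.158). Without the first naive array Cd69 fell in both Th2 groups, which were sorted as CD69+ (-1.02 and -1.61, limma adjusted p = 0.0443 and 0.00462), and Cd4 rose by 0.77 in acute cells (adjusted p = 0.000537). Il1rl1, which encodes ST2, was not analysed here. Markers of other cells were mostly under the olfactory receptor level on all arrays: 8 of 9 for B cells, 6 of 6 for NK cells, 7 of 8 for macrophages, 5 of 6 for dendritic cells and 6 of 6 for mast cells and basophils. For eosinophils and neutrophils it was 6 of 8, for lung epithelium 4 of 7, for endothelium and stroma 4 of 6, for erythroid cells and platelets 2 of 3 and for CD8 T cells 1 of 2. Of these lists 4 held a called gene. Ccr3, in the eosinophil list, rose by 0.91 and by 1.08 (limma adjusted p = 0.000237 and 9.2e-05), and Sftpa1, of lung epithelium, rose by 0.54 in chronic cells (adjusted p = 0.019). Klrd1, of NK cells, fell by 1.18 in acute cells (limma adjusted p = 0.012), and Cd79a, of B cells, fell by 0.61 in chronic cells (adjusted p = 0.0459; 0.0536 without the first naive array). Markers of regulatory T cells were higher in lung: 3 of 5 rose in both stages, and their summed log2 level was 41.3 to 44.7 in naive, 52.5 to 54.1 in acute and 52.0 to 52.4 in chronic cells. Foxp3 rose by 1.41 and by 1.13, Ikzf2 by 1.42 and by 1.11 and Ctla4 by 4.96 and by 5.28. Leaving out the first naive array, 4 of 5 rose in both stages, Il2ra included, and Lrrc32 fell by 1.16 in chronic cells. Of 5 markers used for group 2 innate lymphoid cells 3 rose as well, with sums of 30.3 to 32.4, 39.1 to 39.7 and 38.2 to 38.8. Of either list 0 genes were under the olfactory receptor level on all arrays, and the part of such cells in the members' levels was not tested.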

How the data were processed

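RNA of 9 sorted and stimulated samples was hybridised to 1-colour Affymetrix mouse gene arrays. The deposited values are log2 intensities per probe set that the authors made with RMA, which corrects background, normalizes by quantiles and summarises probes, per the submitters' processing notes; RMA pulls low values together and can give arrays tied values. The precision is limited by the 3 arrays per group. Of 34760 probe sets, 21640 named 1 gene in GEO's platform annotation, 1321 named several and 11799 were not listed; of a gene's probe sets the one with the highest mean was kept, leaving 19937 genes. limma 3.58.1 (R 4.3.3; lmFit and eBayes, 9 arrays, 3 groups, two-sided) gave differences, with Benjamini-Hochberg adjustment over all genes and calls at adjusted p under 0.05. The procedure was tested on simulated data. If arrays of a group shared animals, p-values would measure technical spread only.

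The members and the gene lists were chosen with earlier results of these data known. Named genes were the members, their listed paralogs, up to 4 called genes with the largest difference per list, the genes next in order of fall and the 8 most alike in pattern. Alternatives were a further quantile normalization, removal of dim genes, the mean of all probe sets, array weights, fits on 2 groups, a replicate block and leaving out each array.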

Additional observations from a re-analysis of the deposited data

How the results depend on the processing

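The 8 genes' differences from naive cells kept their direction under every alternative run. For genes called, array weights gave 4019 in acute and 4675 in chronic cells against naive cells and 6721 between the stages, beside 1171, 1571 and 6 as reported; fits on only the 2 groups compared gave 762, 686 and 2. Array weights also called 2 members between the stages. They were Ms4a4b at -0.50 (limma adjusted p = 0.0429, beside 0.772 as reported) and Ipcef1 at -0.41 (limma adjusted p = 0.00631). The fit gave the first naive array a weight of 0.165. Acute arrays 1, 2 and 3 had weights of 0.466, 1.29 and 8.23, and chronic arrays 1, 2 and 3 had 0.631, 2.21 and 0.553. The weighted acute means thus rest mostly on acute array 3. Leaving out 1 array gave 653 to 2424, 734 to 3438 and 0 to 12 genes called, and 0 members between the stages; the highest counts came without the first naive array. With the replicate number as a block 0 genes were called between the stages (limma; 3554 at an unadjusted p under 0.05), with 1261 and 1844 against naive cells. The numbers share no source in the labels, and deviations of same-numbered arrays correlated between -0.085 and 0.572, so they were not taken as pairs. Normalizing by quantiles again split the calls between the stages 4 higher and 1 lower, beside 3 and 3. It also turned the balance of calls in chronic against naive cells, to 754 higher and 604 lower beside 734 and 837. Stage differences near 0 changed sign: with quantiles Atp1b1 was at -0.079, Itm2a at -0.080 and St8sia6 at -0.13, and with array weights Atp1b1 was at -0.23. Leaving out 1 array, Atp1b1 ran from -0.094 to 0.19, Itm2a from -0.057 to 0.15 and St8sia6 from -0.11 to 0.12. The cause of these changes was not tested. Of the calls of other genes against naive cells, 548 were kept and 95 lost over all alternatives. Array background limits how low the Th2 values can read.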
